A study of Mus musculus with 6 samples.

Results

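The 38 genes described here build and run skeletal muscle: 4 transcription factors of the MyoD family, 8 genes of the thick filament, 8 of the thin filament, 4 of the elastic scaffold and Z-disc, 7 of calcium handling and energy supply, and 7 of the motor endplate and myoblast adhesion. They were chosen by name, and every array probe whose transcript identifier maps to one of the 38 names was taken, which gave 51 probes of the 39429 gene probes on the array. All 38 genes passed the filter on dim probes, among 24354 genes tested. RNA of whole mouse embryos at 12 days was measured, 1 embryo per array, in 3 groups of 2. Homozygous embryos carried the STAT3-K177K180R allele on both copies of Stat3, heterozygous embryos carried it on 1 copy, and wild-type embryos on none. The allele's name places arginine at a pair of lysines of STAT3, a transcription factor switched on by cytokines. All embryos came from the same womb per the labels, which also speak of 2 independent experiments per group and do not identify litters, so p-values measure only the spread between these samples. One label field calls the wild-type group a mutant, and the extraction protocol names tumour tissue. The sample titles were followed. All 10 markers of embryonic organs that were checked were well above background on all 6 arrays, among them Afp of liver, Tubb3 of neurons and Col2a1 of cartilage. So were 3 of 3 measured placenta markers. Between 72.0% and 78.3% of the gene spots of an array were well above background, so detection of these markers does not settle which tissue was taken.

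Skeletal muscle of trunk and limbs comes from the somites. Myf5 and Myod1 commit precursor cells to the muscle fate, Myog drives their differentiation and fusion into fibres, and Myf6 (Mrf4) acts in both commitment and the later fibre. These factors bind the E-box, a short DNA motif, with E-protein partners, and the fibres they induce then make contractile proteins in embryonic and perinatal forms before adult forms replace them. In mid-gestation the primary fibres are forming and acetylcholine receptors begin to gather where motor axons will end.

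Both homozygous arrays lay on a slide of their own, while the heterozygous and wild-type arrays shared the other. In each comparison of homozygous embryos the slide and the genotype therefore cannot be told apart. Negative control spots read 43.5 and 48 intensity units on the homozygous arrays, 27 and 26 on the heterozygous arrays and 26 and 26 on the wild-type arrays. The 75th percentile of the intensity was 784 to 856, 1186 to 1258 and 1035 to 1064 in the same order of groups. Each value below is a normalised intensity, the processed intensity of a probe with the 75th percentile of its array set to 100, and each difference is on the log2 scale with its standard error and n = 2 embryos per genotype. A probe's level depends on the probe itself, so levels are compared between embryos and never between genes. The probe used for a gene was its brightest, and it was well above background on all 6 arrays for 35 of the 38 genes. The exceptions were Myf5, not well above background in homozygous embryo 2, Mylpf, not well above background in wild-type embryo 1, and Acta1, whose spot was marked as an outlier in homozygous embryo 1 and has no value there.

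Between homozygous and wild-type embryos 11 of the 38 genes differed, 8 of them higher and 3 lower in homozygous embryos (adjusted p below 0.05, over all genes tested). Mylpf, Rapsn, Myf6, Ckm, Myom2, Myog, Mybpc2 and Mybpc1 were higher, by 0.56 to 1.53 on the log2 scale, and Mybph, Myf5 and Tpm2 were lower. Across the whole array 28.9% of genes passed this test, 14.4% higher and 14.6% lower, so the share of muscle genes that passed was that of the background. The median difference of the 38 genes was 0.22, against 0.08 over all genes, with 25 values above 0 (56.7% of all genes) and 13 below. Both homozygous embryos lay above both wild-type embryos in 18 genes (background 39.6%) and below both in 6 (background 29.9%). Leaving out 1 embryo changed the number of muscle genes called and the share called over all genes. The median of the 38 genes was then 0.31 without wild-type embryo 1 and 0.10 without wild-type embryo 2. It was 0.295 without homozygous embryo 1 and 0.248 without homozygous embryo 2. In RNA of whole embryos, fewer muscle cells and less RNA per cell cannot be told apart.

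**Figure D1:**
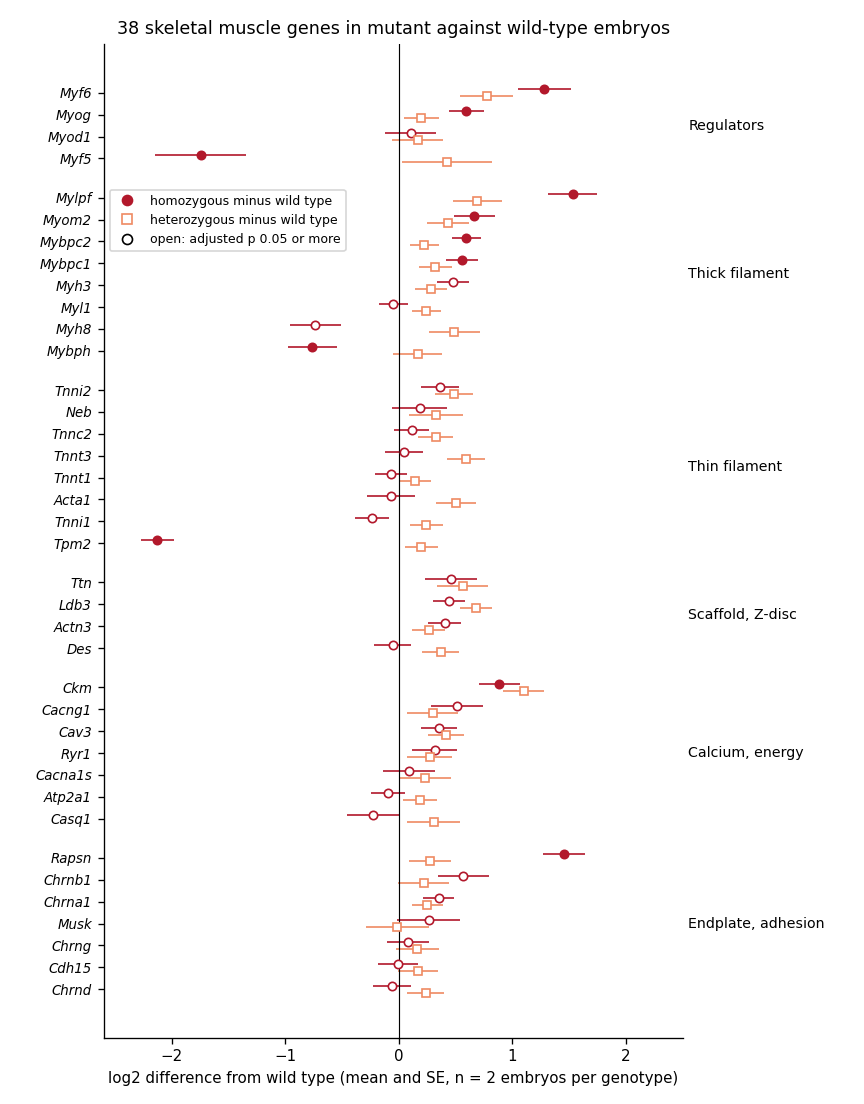
Difference from wild type of the 38 muscle genes on the log2 scale (x axis), ordered by role, as means with standard errors of 2 embryos per genotype. Homozygous embryos are circles and heterozygous embryos are squares, and filled symbols have an adjusted p below 0.05. Homozygous values spread from −2.13 for Tpm2 to 1.53 for Mylpf, while heterozygous values lie between −0.01 and 1.101 and none is filled.

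Among the 4 regulators, Myf6 and Myog were higher in homozygous embryos, Myf5 was lower and Myod1 did not pass (75% called, against 28.9% of all genes). The promoters of Myog, which was higher, and of Myf5, which was lower, are shown because the family both binds E-boxes and regulates its own members. They are the 250 bases before each transcript's start in RefSeq (GRCm38.p6), 5′ to 3′ on the gene's strand, with E-boxes of the form CANNTG in capitals. The Myog window is chr1:134289754-134290003 (+ strand) and the Myf5 window is chr10:107486135-107486384 (− strand).
Myog: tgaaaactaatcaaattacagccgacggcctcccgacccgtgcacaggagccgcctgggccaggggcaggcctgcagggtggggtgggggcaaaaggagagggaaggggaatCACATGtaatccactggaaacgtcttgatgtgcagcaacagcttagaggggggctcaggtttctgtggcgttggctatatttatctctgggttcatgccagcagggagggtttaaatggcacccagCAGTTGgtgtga
Myf5: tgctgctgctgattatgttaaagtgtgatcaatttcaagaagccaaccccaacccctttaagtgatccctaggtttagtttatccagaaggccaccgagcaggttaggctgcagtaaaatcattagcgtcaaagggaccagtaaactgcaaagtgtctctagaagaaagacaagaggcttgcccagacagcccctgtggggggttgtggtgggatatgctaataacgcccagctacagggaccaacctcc
The Myog window holds E-boxes at positions −138 and −12, counted to the motif's first base with −1 as the base before the start. The Myf5 window holds no CANNTG.

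Of the 38 genes, 28 had such a promoter in the RefSeq table, in 30 windows because 2 genes have 2 starts. The motif CANNTG, which reads the same on both strands, was found in 26 of the 30 windows (86.7%), against 66.2% of the 32851 windows of all genes. The narrower form CAGCTG, which is also a CANNTG, was found in 17 of 30 (56.7%), against 13% of all windows. TATAAA on either strand was found in 7 of 30 (23.3%), against 12.4% of all windows. A match describes the sequence and is no evidence of binding.

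Myf5, which commits cells to the muscle fate, read 4.21 and 1.73 in homozygous embryos, 13.9 and 10.7 in heterozygous embryos and 9.67 and 8.49 in wild-type embryos. Both homozygous embryos lay below the other 4 embryos, and only 1 of the 2 was well above background. The difference from wild type was −1.75 ± 0.40 (adjusted p = 0.0225) and rests in part on homozygous embryo 2, without which it was −1.11 (adjusted p = 0.0116). It did not pass without wild-type embryo 1 (−1.65, adjusted p = 0.109) or wild-type embryo 2 (−1.84, adjusted p = 0.0935). With normexp, a background correction that models signal and background together, it was −0.52 with the 75th percentile and −0.80 with quantile normalisation (adjusted p = 0.0228 and 0.0174).

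Myf6, the neighbouring gene of Myf5 on chromosome 10 with no protein-coding gene between them, went the other way. It read 14.6 and 22.6 in homozygous embryos, 13.8 and 11.9 in heterozygous embryos and 8.25 and 6.79 in wild-type embryos. Both homozygous embryos lay above both wild-type embryos, and the heterozygous embryos lay between them. The difference from wild type was 1.28 ± 0.23 (adjusted p = 0.0114), and 1.14 without wild-type embryo 2, where it no longer passed (adjusted p = 0.0833).

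Myog, which drives differentiation, read 391 and 483 in homozygous embryos, 348 and 313 in heterozygous embryos and 299 and 278 in wild-type embryos, with no overlap between genotypes. The homozygous excess was 0.59 ± 0.15 (adjusted p = 0.0326). This call failed in 9 of 17 alternative settings. It was 0.44 without homozygous embryo 2 (adjusted p = 0.0683), 0.65 and 0.54 without wild-type embryo 1 or 2 (adjusted p = 0.130 and 0.186), and an unchanged 0.59 without either heterozygous embryo (adjusted p = 0.0570). Myod1, the other commitment factor, read 93.7 and 67.6 in homozygous, 96.2 and 71.6 in heterozygous and 80.9 and 67.8 in wild-type embryos. Its genotypes overlapped, with a difference of 0.10 ± 0.23 for homozygous against wild type (adjusted p = 0.749).

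**Figure D2:**
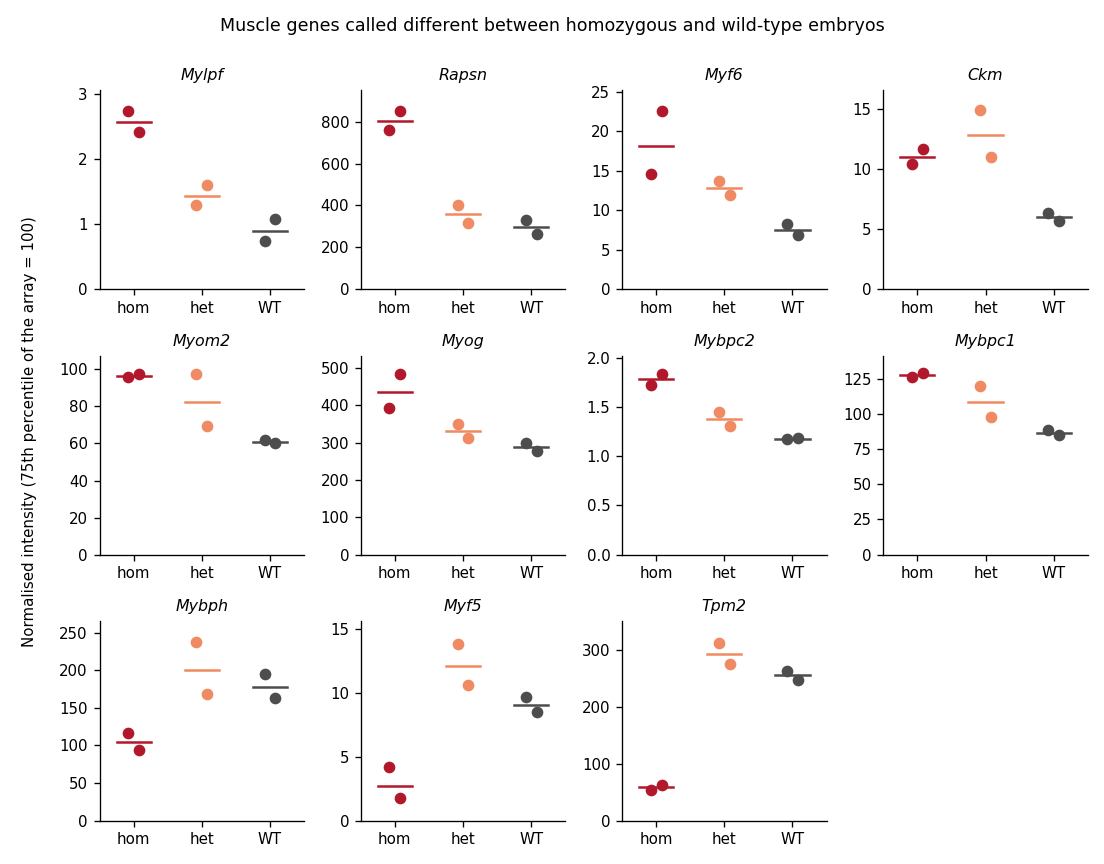
Normalised intensity (y axis, 75th percentile of each array = 100, separate scales) of the 11 muscle genes called different between homozygous (hom) and wild-type (WT) embryos, with heterozygous (het) embryos between them. Points are embryos and bars are geometric means of 2. Ckm is as high in heterozygous as in homozygous embryos, while Tpm2 and Myf5 are low in homozygous embryos and not in heterozygous ones.

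Of the 8 thick filament genes, 4 were higher in homozygous embryos (Mylpf, Myom2, Mybpc2 and Mybpc1), 1 was lower (Mybph) and 3 did not pass (62.5% called, against 28.9% of all genes). Mylpf, the regulatory light chain of fast muscle myosin, and Mybph, a myosin-binding protein, moved in opposite directions, and their promoters are set side by side with E-boxes in capitals. The Mylpf window is chr7:127211358-127211607 (+ strand) and the Mybph window is chr1:134193198-134193447 (+ strand).
Mylpf: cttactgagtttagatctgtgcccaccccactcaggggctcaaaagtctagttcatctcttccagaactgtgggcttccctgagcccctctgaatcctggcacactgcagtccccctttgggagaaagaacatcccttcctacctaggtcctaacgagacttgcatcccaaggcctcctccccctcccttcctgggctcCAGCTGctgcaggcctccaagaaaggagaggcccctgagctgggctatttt
Mybph: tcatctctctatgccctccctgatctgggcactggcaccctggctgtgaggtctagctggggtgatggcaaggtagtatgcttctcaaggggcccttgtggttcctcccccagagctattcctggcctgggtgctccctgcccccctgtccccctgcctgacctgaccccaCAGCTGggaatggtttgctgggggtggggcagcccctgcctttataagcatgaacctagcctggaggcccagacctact
Each holds 1 E-box, of the CAGCTG form in both, at position −51 in Mylpf and −79 in Mybph.

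Mylpf read 2.74 and 2.42 in homozygous embryos, 1.29 and 1.60 in heterozygous embryos and 0.739 and 1.07 in wild-type embryos. The 3 genotypes did not overlap. The difference from wild type was 1.53 ± 0.22 (adjusted p = 0.00515), and it passed in all 16 alternative settings that measured it. Mylpf had a single probe, so none of these settings could change the probe. The probe is dim, and the background was highest on the homozygous arrays. After normexp correction the difference was 0.59 with the 75th percentile and 0.28 with quantile normalisation (adjusted p = 0.00416 and 0.0469), so its size depends on the background correction.

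Mybph, a gene 1 protein-coding gene away from Myog on chromosome 1, read 117 and 94.3 in homozygous embryos, 238 and 168 in heterozygous embryos and 195 and 163 in wild-type embryos. Both homozygous embryos lay below the other 4. The difference from wild type was −0.76 ± 0.22 (adjusted p = 0.0426). It did not pass without homozygous embryo 2 (−0.61, adjusted p = 0.102), wild-type embryo 1 (−0.64, adjusted p = 0.210) or wild-type embryo 2 (−0.89, adjusted p = 0.119).

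Myom2, an M-band protein that crosslinks thick filaments, read 95.6 and 97.5 in homozygous embryos, 97.6 and 69.3 in heterozygous embryos and 61.7 and 60.1 in wild-type embryos. Its difference from wild type was 0.67 ± 0.18 (adjusted p = 0.0385), with 1 heterozygous embryo at the homozygous level. Mybpc1 and Mybpc2 are the slow and fast forms of myosin-binding protein C. Mybpc1 read 126 and 129 in homozygous, 119.9 and 98.1 in heterozygous and 88.3 and 85.2 in wild-type embryos, a difference from wild type of 0.56 ± 0.14 (adjusted p = 0.0324). Mybpc2 read 1.72 and 1.84 in homozygous, 1.45 and 1.31 in heterozygous and 1.18 and 1.18 in wild-type embryos, a difference from wild type of 0.59 ± 0.13 (adjusted p = 0.0186). For Mybpc1 and Mybpc2 the genotypes did not overlap and the heterozygous embryos were intermediate. The Mybpc2 probe is dim, and its difference was 0.34 after normexp with the 75th percentile (adjusted p = 0.0448) and −0.0195 with quantile normalisation (adjusted p = 0.864).

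These 3 smaller rises were lost when a single array was left out. Without wild-type embryo 1 or 2, Myom2 was at 0.69 and 0.65 (adjusted p = 0.156 and 0.179), Mybpc1 at 0.58 and 0.53 (adjusted p = 0.147 and 0.181) and Mybpc2 at 0.59 and 0.60 (adjusted p = 0.121 and 0.124). Myom2 also failed without homozygous embryo 1 (0.68, adjusted p = 0.0549) or 2 (0.65, adjusted p = 0.0688), and Mybpc1 without homozygous embryo 2 (0.54, adjusted p = 0.0565).

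The myosin heavy chains of the developing fibre did not pass with the processed intensity. Myh3, the embryonic form, read 2928 and 2957 in homozygous, 2853 and 2319 in heterozygous and 2143 and 2082 in wild-type embryos, a difference from wild type of 0.48 ± 0.14 (adjusted p = 0.0510). Myh8, the perinatal form, read 64.0 and 83.0 in homozygous, 203 and 143 in heterozygous and 133 and 111 in wild-type embryos, a difference of −0.73 ± 0.22 (adjusted p = 0.0520). At these probes homozygous embryos had the higher Myh3 values and the lower Myh8 values, without overlap with wild type (background 39.6% above and 29.9% below). After normexp with the 75th percentile both passed, Myh3 at 0.47 and Myh8 at −0.64 (adjusted p = 0.0236 and 0.0268 over all probes). In that setting 38.4% of all genes passed, 6602 higher and 2759 lower. A second Myh3 probe read 523 and 617 in homozygous, 889 and 656 in heterozygous and 655 and 576 in wild-type embryos, overlapping between homozygous and wild-type embryos at −0.11 (adjusted p = 0.683 over all probes). A second, dim Myh8 probe was at −0.29 (adjusted p = 0.331 over all probes). The higher Myh3 values and the larger Myh8 difference therefore rest on 1 of 2 probes each. Myl1, an alkali light chain of fast muscle, differed by −0.05 ± 0.13 (adjusted p = 0.797).

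Of the 8 thin filament genes, only Tpm2 passed in homozygous against wild-type embryos, and it was lower (12.5% called, against 28.9% of all genes). Tpm2 codes for beta-tropomyosin, which lies along actin and gates myosin access. Its promoter, chr4:43523555-43523804 (− strand), is shown with its E-box in capitals because Tpm2 had the largest decrease among the brightest probes of the 38 genes.
Tpm2: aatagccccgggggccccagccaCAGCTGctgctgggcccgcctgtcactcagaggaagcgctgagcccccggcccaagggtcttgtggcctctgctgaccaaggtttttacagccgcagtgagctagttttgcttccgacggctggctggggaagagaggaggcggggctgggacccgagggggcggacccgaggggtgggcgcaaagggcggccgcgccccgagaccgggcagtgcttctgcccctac
The window holds 1 E-box, CAGCTG at position −227.

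Tpm2 read 54.0 and 63.2 in homozygous embryos, 311 and 275 in heterozygous embryos and 263 and 247 in wild-type embryos. The homozygous embryos lay far below the other 4, by a factor of 4.37 against wild type. The difference was −2.13 ± 0.14 (adjusted p = 0.000700). A second probe of Tpm2 read 62.3 and 101 in homozygous, 113 and 125 in heterozygous and 108 and 101 in wild-type embryos, with a difference from wild type of −0.39 that did not pass (adjusted p = 0.270 when it stands for the gene). The mean of both probes was −1.26 (adjusted p = 0.00552). The decrease therefore rests on 1 of 2 probes.

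The other 7 thin filament genes lay between −0.24 (Tnni1) and 0.36 (Tnni2) in homozygous against wild-type embryos. They were the troponins of fast fibres Tnnt3 (0.05), Tnnc2 (0.11) and Tnni2, the slow troponins Tnnt1 (−0.07) and Tnni1, the giant ruler protein nebulin, Neb (0.18), and skeletal alpha-actin, Acta1 (−0.07, from 1 homozygous embryo). Acta1 read 300.4 in homozygous embryo 2, 506 and 395 in heterozygous embryos and 334 and 298 in wild-type embryos. The median of the 8 thin filament genes was −0.01, against 0.52 for the 8 thick filament genes. That difference between the groups was not tested.

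None of the 4 scaffold and Z-disc genes passed in homozygous against wild-type embryos at its brightest probe with the processed intensity (0% called, against 28.9% of all genes). Ttn, the elastic filament titin, was at 0.46 ± 0.23, the Z-disc proteins Ldb3 and Actn3 at 0.44 ± 0.14 and 0.40 ± 0.15, and Des, the muscle intermediate filament desmin, at −0.05 ± 0.16 (adjusted p = 0.0601 to 0.821). Both homozygous embryos lay above both wild-type embryos for Ttn, Ldb3 and Actn3 (background 39.6%), and the genotypes overlapped for Des. After normexp with the 75th percentile Ldb3 passed at 0.48 and Actn3 at 0.41 (adjusted p = 0.0204 and 0.0377 over all probes). The brightest Ttn probe and Des did not. In that setting 38.4% of all genes passed.

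Among the 7 genes of calcium handling and energy supply, Ckm was higher in homozygous embryos and 6 did not pass (14.3% called, against 28.9% of all genes). Ckm, muscle creatine kinase, which buffers ATP in the fibre, read 10.4 and 11.6 in homozygous embryos, 14.9 and 10.97 in heterozygous embryos and 6.30 and 5.64 in wild-type embryos. All 4 mutant embryos lay above both wild-type embryos, and the homozygous and heterozygous embryos overlapped. The homozygous difference was 0.89 ± 0.18 (adjusted p = 0.0161), 0.96 without wild-type embryo 1 (adjusted p = 0.0720) and 0.81 without wild-type embryo 2 (adjusted p = 0.113), so the call needs both wild-type embryos. It was 0.50 after normexp with quantile normalisation (adjusted p = 0.0308).

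The other members of this group spanned −0.23 to 0.51 in homozygous against wild-type embryos. Cacng1 (0.51) and Cacna1s (0.09) are subunits of the calcium channel that senses the membrane potential, Ryr1 (0.32) is the release channel it opens, and Cav3 (0.35) is the caveolin of the muscle membrane. Atp2a1 (−0.09) pumps calcium back into the reticulum and Casq1 (−0.23) stores it there. Their adjusted p-values were 0.133 to 0.781, and both homozygous embryos lay above both wild-type embryos for Cacng1, Ryr1 and Cav3 (background 39.6%).

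At the endplate, Rapsn was higher in homozygous embryos and the other 6 genes did not pass (14.3% called, against 28.9% of all genes). Rapsn codes for rapsyn, which anchors acetylcholine receptors beneath the nerve terminal. It read 760 and 854 in homozygous embryos, 403 and 315 in heterozygous embryos and 331 and 262 in wild-type embryos. The homozygous embryos stood clear of the other 4, and the heterozygous and wild-type embryos overlapped. The difference from wild type was 1.45 ± 0.19 (adjusted p = 0.00387), and it passed in all 17 alternative settings, at 1.28 to 1.62. Rapsn had a single probe, so no setting could change the probe, and none could separate slide from genotype.

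The receptor subunits that rapsyn gathers, and their neighbours, were nearer wild type. Chrnb1 was at 0.57 ± 0.23 and Chrna1 at 0.35 ± 0.14 (adjusted p = 0.104 and 0.100). For both, the homozygous embryos lay above both wild-type embryos (background 39.6%). The fetal gamma subunit Chrng was at 0.08 ± 0.19 and the delta subunit Chrnd, its adjacent gene on chromosome 1, at −0.06 ± 0.17 (adjusted p = 0.758 and 0.811). Musk, the kinase that starts receptor clustering, was at 0.26 ± 0.28 (adjusted p = 0.495), and Cdh15, M-cadherin of myoblasts, at −0.01 ± 0.18 (adjusted p = 0.972). After normexp with the 75th percentile Chrnb1 passed at 0.47 and Chrna1 at 0.46 (adjusted p = 0.0379 and 0.0204 over all probes). Chrng, Chrnd, Musk and Cdh15 did not pass there, where 38.4% of all genes did.

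The 11 genes with several probes, 24 probes in all, gave mixed readings in homozygous against wild-type embryos. The other 27 genes had 1 probe each, among them Mylpf, Rapsn, Myf6, Ckm, Myom2, Myog, Mybpc2, Mybph and Myf5. Of the genes called, only Tpm2 and Mybpc1 had a second probe, and that probe did not pass in either gene. With every kept probe tested, 9 of the 51 muscle probes were higher and 5 lower (background 27.8% in either direction). In none of the 11 genes did every probe pass the same way, in 5 some probes passed, and in 4 all probes had the same sign. The widest split was in Ttn, with 4 probes. Its probe A_55_P2153031 read 2.76 and 1.85 in homozygous embryos, 91.7 and 45.7 in heterozygous embryos and 52.7 and 41.1 in wild-type embryos, a difference from wild type of −4.36 ± 0.36 (adjusted p = 0.00114 over all probes). The homozygous embryos lay far below the other 4 at this probe, where their processed intensities were only 23.7 and 14.5 units. After normexp with the 75th percentile the difference was −2.49 (adjusted p = 0.000438 over all probes), so its size depends on the background correction. The brightest Ttn probe was at 0.46 and the other two at −0.05 and −0.45, none of which passed.

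Besides Myh3, the genes Neb, Myl1 and Mybpc1 also had probes that disagreed. A second Neb probe read 13.9 and 16.2 in homozygous, 44.0 and 29.3 in heterozygous and 29.8 and 26.2 in wild-type embryos, a difference from wild type of −0.90 (adjusted p = 0.0279 over all probes), where the brightest was at 0.18. A second Myl1 probe, matched to another transcript record of the gene, was at 0.58 (adjusted p = 0.0192 over all probes), where the brightest was at −0.05. A second Mybpc1 probe was at −0.000554, where the brightest was at 0.56. The reason for these differences between probes of a gene was not tested.

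**Figure D3:**
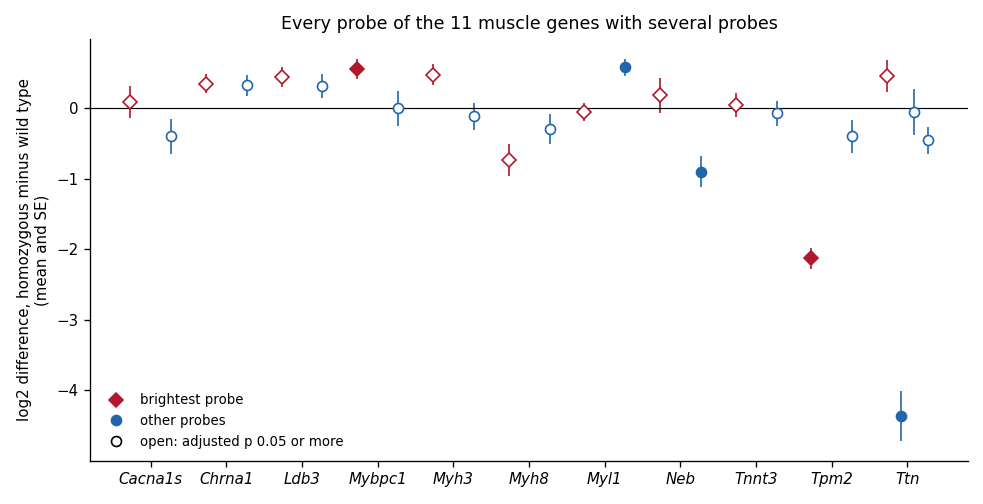
Homozygous minus wild type on the log2 scale (y axis, mean and standard error, 2 embryos per genotype) for every probe of the 11 muscle genes with several probes (x axis). Diamonds are the brightest probe of each gene, circles its other probes, and filled symbols have an adjusted p below 0.05 over all kept probes. One Ttn probe at −4.36 and one Tpm2 probe at −2.13 stand apart from the other probes of the same genes.

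No muscle gene passed in heterozygous against wild-type embryos, and neither did any other gene on the array (0% called, every adjusted p of a muscle gene = 1). At an unadjusted p below 0.05 there were 9 muscle genes, against 552 of all genes (2.27%). The values of the 38 genes still lay almost all on one side: 37 were above 0 and Musk was at −0.01. Their median was 0.28, against 0.004 over all genes, of which 51.4% were above 0. Both heterozygous embryos lay above both wild-type embryos in 27 of the 38 genes (background 14.8%) and below both in 0 (background 12.1%). Other lists lay on the same side in these embryos: 12 of 13 cardiac markers were above 0 (median 0.27), as were 8 of 9 smooth muscle markers (median 0.16) and 20 of 24 genes of excitation-contraction coupling and the fibre membrane (median 0.155). Not every muscle list did so: of 20 genes of muscle precursors and upstream regulators 14 were above 0, with a median of only 0.03. Of 9 other endplate genes 4 were above 0 (median −0.005). Of 12 tendon and connective tissue markers 5 were above 0, and of 5 motor neuron markers 2. All 4 arrays of this comparison shared a slide.

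With the processed intensity the largest heterozygous difference among the 38 genes was that of Ckm, 1.101 ± 0.18 with an unadjusted p of 0.000746. Myf6 followed at 0.77 ± 0.23, Mylpf at 0.69 ± 0.22, Ldb3 at 0.68 ± 0.14 and Tnnt3 at 0.60 ± 0.17. Ldb3 read 186 and 152 in heterozygous embryos and 105 and 105 in wild-type embryos. Tnnt3 read 119 and 95.5 in heterozygous embryos and 70.1 and 71.1 in wild-type embryos. For these genes no heterozygous value fell within the wild-type range, but none passed the correction for all genes tested. After normexp with the 75th percentile Ckm was at 0.61, Myf6 at 0.43, Ldb3 at 0.64 and Tnnt3 at 0.54. Ldb3 then lay above Ckm at its brightest probe, and Mylpf, whose probe is dim, changed sign to −0.0754. A second Ldb3 probe was only at 0.34 with the processed intensity and at 0.17 after the same normexp correction. A second Tnnt3 probe was at 0.53 and 0.49 in the same order.

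The heterozygous values above wild type came from both embryos, more from heterozygous embryo 1. The median over the 38 genes was 0.46 in heterozygous embryo 1 and 0.18 in heterozygous embryo 2 relative to the wild-type mean. Without heterozygous embryo 1, 32 of the 38 values were above 0, and without heterozygous embryo 2, all 38 were. After normexp with the 75th percentile, 33 of 38 values were above 0, where 32.5% of all genes were.

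**Figure D4:**
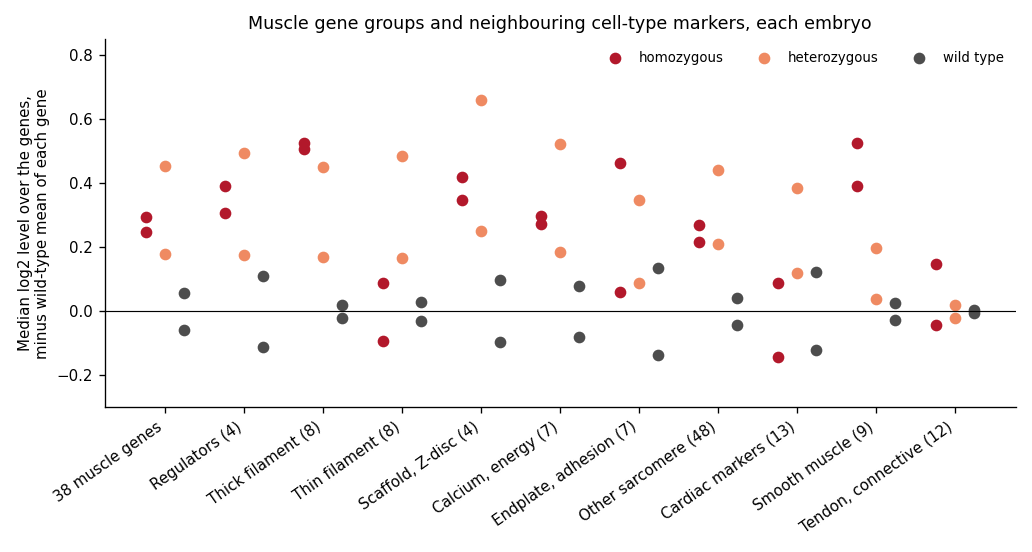
Median log2 level of each gene group in each embryo, relative to the wild-type mean of each gene (y axis), with the number of genes in brackets (x axis). Points are embryos, homozygous left, heterozygous in the middle and wild type right. Heterozygous embryo 1 is the highest for the 38 genes, at 0.46, and the homozygous embryos lie at 0.25 and 0.29.

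Homozygous embryos differed from heterozygous embryos in 6 of the 38 genes (background 23.9%), with Rapsn and Mylpf higher (background 10.8%) and Tpm2, Myf5, Myh8 and Mybph lower (background 13.2%). This comparison shares its homozygous embryos with the one against wild type and its heterozygous embryos with the one above. Rapsn was 1.18 ± 0.19 above heterozygous embryos (adjusted p = 0.00883) and Mylpf 0.84 ± 0.22 (adjusted p = 0.0366). Tpm2 fell by 2.33 ± 0.14 (adjusted p = 0.000623) and Myf5 by 2.17 ± 0.40 (adjusted p = 0.0137). Myh8 fell by 1.22 ± 0.22 (adjusted p = 0.0136) and Mybph by 0.93 ± 0.22 (adjusted p = 0.0279). Myh8 was the only gene of the 11 with several probes in which every probe passed, its second probe at −0.85 (adjusted p = 0.0353 over all probes, of which 22.8% passed). That second probe is dim, and after normexp with the 75th percentile it was at 0.0792 (adjusted p = 0.664 over all probes), so it no longer passed and changed sign, while the brightest Myh8 probe was at −1.08 (adjusted p = 0.00337 over all probes).

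Without heterozygous embryo 1 or 2, 2 and 3 muscle genes passed (6.8% and 9.96% of all genes). Each of these 6 calls except that of Tpm2 was lost when one embryo was left out. Without heterozygous embryo 1, Mylpf was at 0.69, Myf5 at −1.98, Myh8 at −0.97 and Mybph at −0.68 (adjusted p = 0.0753 to 0.175). Without heterozygous embryo 2, Rapsn was at 1.00, Mylpf at 1.00 and Myf5 at −2.36 (adjusted p = 0.0501 to 0.0775). Mylpf was at 0.75 without homozygous embryo 1 (adjusted p = 0.0679), and Mybph at −0.77 without homozygous embryo 2 and at −0.93 without either wild-type embryo. Tpm2 was lost with its second probe (−0.58, adjusted p = 0.135), and Mylpf and Myf5 shrank to 0.20 and −0.71 under normexp corrections.

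The median over the 38 genes was −0.13 in homozygous against heterozygous embryos, against 0.08 over all genes, with 14 values above 0 (56.5% of all genes) and 24 below. Both homozygous embryos lay above both heterozygous embryos in 8 genes (background 36%) and below both in 13 (background 28.1%). The median was 0.08 without heterozygous embryo 1, −0.31 without heterozygous embryo 2 and −0.05 without homozygous embryo 2. All 8 thin filament genes were below 0, at −0.12 (Tnni2) to −2.33 (Tpm2), although only Tpm2 passed. Tnnt3 at −0.55 and Tnni1 at −0.48 came nearest among the rest (adjusted p = 0.0585 and 0.0591).

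Other genes of muscle, from lists that do not overlap with the 38, were read in the same fit. Of 20 genes of muscle precursors and upstream regulators, 1 was higher in homozygous than in wild-type embryos and 3 lower (20% called, against 28.9% of all genes). Itga7, the laminin receptor of myoblasts, was at 0.89, while Lbx1, a homeobox factor of migrating limb precursors, was at −0.72, Meox1 of the somite at −0.62 and Mef2d, a partner of the MyoD family, at −0.61. Of 48 further sarcomere and fibre genes, 10 were higher and 4 lower, and the share called, 29.2%, was that of all genes. Myl3, Srl and Cryab were at 1.18, 0.97 and 0.94. Xirp2, an actin-binding protein, was well above background only in the 2 homozygous embryos. It passed the dim-probe filter through them alone, so its place among the 10 rests in part on that filter. Its homozygous mean was 2.05-fold the lowest signal well above background on the wild-type arrays.

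In heterozygous against wild-type embryos none of these 48 genes passed, and all 48 values were above 0, with a median of 0.32. Without heterozygous embryo 1 the number above 0 was 42. Of 24 genes of excitation-contraction coupling and the fibre membrane, 1 was higher in homozygous than in wild-type embryos and 3 lower (16.7% called, against 28.9% of all genes). Trdn, triadin, which couples calsequestrin to the release channel, was at −2.59, Bin1, which shapes the transverse tubules and is also expressed outside muscle, at −1.57, Scn4a, the muscle sodium channel, at −0.53, and Hrc, a calcium-binding protein of the reticulum, at 0.61. Of 9 other endplate genes 1 passed (11.1%), Dok7, the activator of Musk, at 1.04.

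Markers of other cells that share genes with muscle, or lie beside it, were measured in the same RNA. Of 13 cardiac markers, 6 of which stand on another list here, 1 passed in homozygous against wild-type embryos, Tnni3 at −1.002 (7.69% called, against 28.9% of all genes). Their summed level, in units of the 75th percentile, was 16.6 and 13.4 in homozygous, 20.4 and 16.4 in heterozygous and 15.7 and 12.99 in wild-type embryos. Heterozygous embryo 1 held the highest value, and heterozygous embryo 2 lay below homozygous embryo 1. Of 9 smooth muscle markers, Smtn (0.82), Acta2 (0.61) and Tagln (0.55) were higher in homozygous embryos and Myocd was lower (44.4% called). Myocd was well above background only in heterozygous and wild-type embryos and passed the dim-probe filter through them alone. Its wild-type mean was 1.41-fold the lowest signal well above background on the homozygous arrays. The summed smooth muscle level was 37.3 and 37.6 in homozygous, 29.1 and 24.6 in heterozygous and 25.6 and 23.1 in wild-type embryos. Such sums are carried by the brightest probes, here those of Smtn, Acta2 and Tagln, so this sum largely repeats the values of these genes. Of 12 tendon and connective tissue markers Lum was higher (0.57) and Osr1 (−2.01) and Tcf7l2 (−1.07) lower (25% called), and of 5 motor neuron markers Chat was lower, at −4.58 (20% called). Placenta markers were read too, and of 3 measured Prl3d1 was higher (0.77) and Psg17 lower (−0.69) in homozygous embryos (66.7% called). No list was without signal, with 13 of 13 cardiac, 7 of 9 smooth muscle, 12 of 12 tendon and 5 of 5 motor neuron markers well above background on all arrays. The part of these cells and of the slide in the muscle values was not tested.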

How the data were processed

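RNA of 6 embryos was hybridised to 1-colour Agilent arrays. The deposited files of each scanner run give, per the file headers, intensity from Agilent Feature Extraction 11.0.1.1, background-subtracted within each array, on a design annotated to mm9. A second deposited file holds log2 values made by the authors, with a median of 6.73 in every array and a correlation of at least 0.995 with the intensities of the same array. How that table was normalised is not given in the sources used here. Control and outlier spots were left out, spots of a probe were averaged, and the 75th percentile of each array was subtracted on the log2 scale, with no pseudocount. The filter kept 29905 probes that were well above background in both embryos of some genotype. They were named through RefSeq (GRCm38.p6, 69.1% of all probes named), and each gene was read from its brightest kept probe. One linear model of genotype over all 6 arrays was fitted with limma 3.58.1 in R 4.3.3 (3 residual and 3.33 prior degrees of freedom), with Benjamini-Hochberg adjustment over 24354 genes in each comparison. The fit was tested on simulated data with the same numbers of arrays and genes. Nearly all large changes and few small ones were recovered there, and the share of false calls lay above the nominal level in each comparison. The simulation changed only a small share of genes, with independent noise and no slide effect. In the data 28.9% and 23.9% of genes passed in the homozygous comparisons, so the simulated shares need not hold for them. The number of arrays limits the precision, and sample titles gave every array its genotype. A bound sets the brighter group against the lowest signal well above background. It is no strict limit, since a probe can read above that signal without being well above background. In homozygous embryo 2 that lowest signal was 12.63 units, and Myf5 read 13.57 without being well above background. Every member was named by rule, with up to 4 genes of smallest p from each other list. Members and lists were chosen with earlier results of these data known. Normexp used the median spot signal with an offset of 50, in place of the mean that had been planned and that the files do not hold.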

Additional observations from a re-analysis of the deposited data

How the results depend on the processing

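The 18 alternative settings changed the background correction, normalisation, dim-probe filter, choice of probe, arrays in the fit, replicate block or variance model, or left out 1 array. In heterozygous against wild-type embryos 0 muscle genes passed in all of them, with a median of 0.18 (without heterozygous embryo 1) to 0.46 (without heterozygous embryo 2). In homozygous against wild-type embryos, 11 genes (8 higher, 3 lower; 28.9% of all genes) became 17 after normexp with the 75th percentile (13 higher; 38.4% of all genes), 7 with no filter on dim probes (5 higher; 17.9%) and 3 of 11 with the second brightest probe (1 higher; 22.8%). Leaving out 1 array gave 3 to 14 genes, 2 to 11 higher and 1 to 4 lower, with 7.63% to 35.9% of all genes called. The median of 0.22 became 0.0897 after normexp with quantile normalisation, −0.11 with the second brightest probe, and 0.10 to 0.31 without 1 array. In homozygous against heterozygous embryos, 6 genes (2 higher, 4 lower) became 13 after normexp with the 75th percentile (6 higher, 7 lower) and 3 of 11 with the second brightest probe (0 higher), while 23.9% of all genes became 48.3% and 18.2%. There was 1 higher gene after either quantile normalisation, with the authors' values, no filter, the stricter filter or an intensity trend. Over all genes 2372 to 3386 were higher in these settings, of 21957 to 32451 tested (14.6% to 26.6% called in either direction). Leaving out 1 array gave 2 to 7 genes, 0 to 3 higher and 1 to 5 lower, with 6.8% to 31.7% of all genes called, and moved the median of −0.13 to between −0.31 and 0.0796. The second brightest probe gave −0.44.

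Single genes changed sign where one value passed. With the second brightest probe, Myl1 was at 0.58 (adjusted p = 0.0264), Mybpc1 at −0.000554, Neb at −0.90 (adjusted p = 0.0324) and Ttn at −4.36 (adjusted p = 0.00128), and the mean of all Ttn probes was −1.10 (adjusted p = 0.0291). Mybpc2 was at −0.0195 after normexp with quantile normalisation, and Chrng at 0.40 in homozygous against heterozygous embryos after normexp with the 75th percentile (adjusted p = 0.0330). The cause was not tested. Normexp with the 75th percentile also moved the median of all genes to 0.21 in homozygous against wild-type and to 0.25 in homozygous against heterozygous embryos, against 0.08 in each with the processed intensity, and turned the split over all genes to 6602 higher and 2759 lower, against 3496 and 3545.

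Same-numbered deviations correlated at −0.16 (homozygous and wild type), 0.00803 (heterozygous and wild type) and 0.255 (homozygous and heterozygous) across genes. With 2 embryos per genotype these values cannot tell whether replicate numbers pair the embryos. With the replicate block, 11, 0 and 6 muscle genes passed, as without it. A slide block could not be fitted, because each slide holds different genotypes in the homozygous comparisons. With 2 embryos per genotype on 6 arrays, a difference that did not pass is not shown to be absent, and the values of dim probes, among them those of Mylpf, Mybpc2 and Myf5, the second probe of Myh8 and one probe of Ttn, depend on the background correction.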
